A study of Mus musculus with 9 samples.

Results

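The cell cycle and p53 response genes are 51 genes chosen by name: cyclins and their kinases, kinase inhibitors, retinoblastoma and E2F family members, replication and mitosis genes, the Myc genes and genes of the p53 response. Their regions were all rows of the deposited peak table that touched the gene's RefSeq span (build GRCm38) extended by 10 kb on each side, which gave 75 of 16884 regions at 36 of the 51 genes. The table gives the signal of the nuclear receptor NR4A2 on chromatin, measured by ChIP-seq (sequencing of DNA pulled down with an antibody to the protein, labelled 9D12), in heart ventricle of 6 mice, 3 in each of 2 groups. The Nr4a2-icTg mice, here called NR4A2 mice, carry a conditional knock-in of Nr4a2 with a reporter at ROSA26 (EGE-GJ-095) and the tamoxifen-inducible Cre of the Myh6-cre/Esr1* strain, whose promoter is active in cardiomyocytes, so that tamoxifen switches on NR4A2 in these cells. The control mice were littermates with the same inducible Cre (aMHC-MerCreMer), which control for effects of tamoxifen and Cre. All mice received 1 tamoxifen injection of 40 mg/kg at 8 to 9 weeks of age and were studied on day 3. The tissue was whole ventricle, so a change in signal per cell and a change in the share of cells that carry it cannot be told apart.

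Cyclin-dependent kinases drive the cell through its cycle when bound to cyclins: D cyclins with CDK4 or CDK6 phosphorylate the retinoblastoma (pocket) proteins, which releases E2F factors to switch on the genes of DNA replication, and cyclin B with CDK1 drives mitosis. The inhibitors of the CIP/KIP and INK4 families hold these kinases back, and p53, restrained by MDM2, raises the inhibitor gene Cdkn1a and other genes of arrest and repair after damage. Cardiomyocytes of the adult mouse rarely divide, and RB1 and RBL2 are known to help keep them out of the cycle. NR4A2 is known to bind, as a monomer, the DNA element called NBRE (letters AAAGGTCA).

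Among the start sites in the table of promoter windows used here, 3 of members lay in a region with lower signal in NR4A2 mice. That table lacks the starts of Ccnd2 and E2f4, so their lower regions could not be checked for a start. The 3 starts are shown first, to set the DNA next to them beside the loss of signal. Each is given as the 250 bases before the start, on the strand of the gene (RefSeq, GRCm38.p6). They are Rbl1 (chr2:157204535-157204784, minus strand), Mcm7 (chr5:138171267-138171516, minus strand) and E2f6 (chr12:16810715-16810964, plus strand). Capitals mark a match to an E2F element, searched as TTTCCCGC, TTTCGCGC, TTTGCCGC or TTTGGCGC, or to the NBRE, each on both strands. The fourth sequence, before a start site of Ccnd3 (chr17:47504801-47505050, plus strand), is shown because it held the one NBRE match among the promoter windows of the members.
Rbl1: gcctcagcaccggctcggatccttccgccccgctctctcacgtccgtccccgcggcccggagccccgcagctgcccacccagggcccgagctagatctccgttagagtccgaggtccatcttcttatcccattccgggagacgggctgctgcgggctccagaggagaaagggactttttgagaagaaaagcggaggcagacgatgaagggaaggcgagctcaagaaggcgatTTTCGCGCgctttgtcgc
Mcm7: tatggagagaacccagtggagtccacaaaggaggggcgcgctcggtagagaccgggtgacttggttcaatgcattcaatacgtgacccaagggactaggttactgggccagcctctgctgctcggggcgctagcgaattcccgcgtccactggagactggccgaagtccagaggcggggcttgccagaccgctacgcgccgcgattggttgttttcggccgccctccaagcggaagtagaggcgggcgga
E2f6: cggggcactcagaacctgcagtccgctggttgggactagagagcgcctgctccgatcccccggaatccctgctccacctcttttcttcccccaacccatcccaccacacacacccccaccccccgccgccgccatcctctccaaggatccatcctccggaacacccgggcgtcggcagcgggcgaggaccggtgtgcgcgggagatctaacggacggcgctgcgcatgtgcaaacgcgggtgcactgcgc
Ccnd3: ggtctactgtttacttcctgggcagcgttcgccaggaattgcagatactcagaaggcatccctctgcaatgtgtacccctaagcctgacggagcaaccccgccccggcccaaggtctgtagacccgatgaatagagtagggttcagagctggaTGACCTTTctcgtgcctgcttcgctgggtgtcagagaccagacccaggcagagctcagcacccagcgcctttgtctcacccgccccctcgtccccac

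The Rbl1 sequence held 1 E2F match, TTTCGCGC, which ended 10 bases before the start and lay inside the region. E2F matches also lay inside uncalled regions at Cdk2 and Mcm5, and at Mycn outside its uncalled region. The Mcm7 and E2f6 sequences shown held no match to either element, but another promoter window of Mcm7 held an E2F match. The Rbl1 stretch lies wholly in its region, the Mcm7 stretch in part, and the E2f6 stretch mostly outside, since that region begins just before the start. The capitals in the Ccnd3 sequence are the NBRE read on the opposite strand, TGACCTTT, which lay 89 bases before the start and outside the adjoining region. In the table of 300-base promoter windows (250 bases before and 50 after the start), 47 windows belonged to 40 of the 51 members. Of these 47, 1 (2.13%) held the NBRE, against 1.51% of all 32851 windows, and 11 (23.4%) held one of the E2F letters, against 2.26% of all. These shares do not allow for base composition. Median GC was 52.7% over all windows and 64.3% over the 22 member windows that touched a region. A match is a description of the letters, and neither motif was tested against the signal.

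At these genes NR4A2 mice showed 1 gain and 8 losses of NR4A2 ChIP signal, by the rule given below. Signal rose at 1 of 75 regions, within the retinoblastoma gene Rb1, from 13.8 ± 4.38 to 61.8 ± 11.6 CPM (SD, n = 3 mice in each group throughout). It fell at 8 regions, at Ccnd3, E2f6, Brca1, E2f4, Cdkn2d, Ccnd2, Mcm7 and Rbl1, by 0.64 to 1.84 on the log2 scale. Of these 8 regions, 6 are also assigned to another gene, as are 38 of the 75 member regions. Those at E2f6 and Rbl1 are shared with Greb1 and Mroh8, in that order. CPM are the depth-scaled reads as deposited, which sum over the regions to 989059 to 1009112 per library. A log2 fold change is the NR4A2 minus the control mean of log2(CPM + 1), and a region was called where the Benjamini-Hochberg adjusted p of limma over all 16884 regions was under 0.05. By that rule 14.7% of all regions were higher and 3.17% lower, against 1.33% and 10.7% of the member regions. No test compared the members with the other regions, so these shares describe the lists only. The median log2 fold change was -0.16 over the 75 member regions and -0.06 over all regions. Among regions of at least median mean CPM it was -0.19 at members and -0.16 over all. Of those regions, 1 of 45 at members was higher and 3 lower, against 481 and 235 of all 8442. The count of losses depended on scaling and on single mice: 0 were called with no scaling for depth, 9 with each mouse centred on its median, and 2, 5 and 5 without control mouse 1, 2 or 3 and 3, 6 and 3 without NR4A2 mouse 1, 2 or 3. The Rb1 gain was called in all of these.

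**Figure D1:**
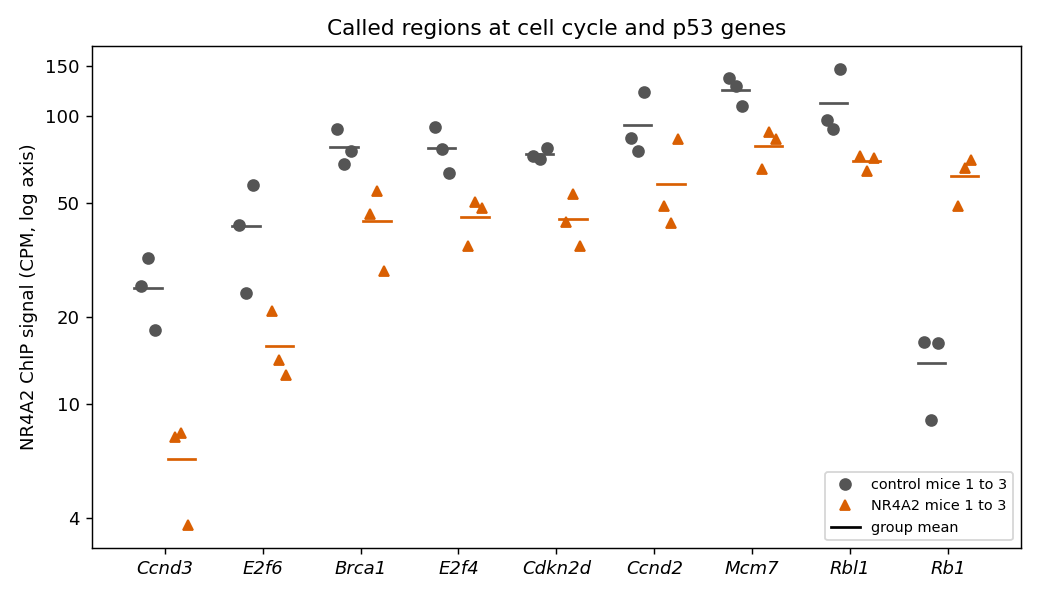
NR4A2 ChIP signal in CPM (log axis) of each mouse at the 9 called regions, ordered by fold change, with horizontal lines at the group means. The NR4A2 mice lie below all control mice at 7 of the 8 lower regions, the exception being Ccnd2, and above all control mice at Rb1.

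The 6 libraries held 549700 to 1035856 reads in regions, recovered from the CPM, and 1 read was worth 0.955 to 1.81 CPM. Between pairs of mice, log2(CPM + 1) at these 75 regions correlated at 0.818 to 0.882 within the control group, at 0.822 to 0.883 within the NR4A2 group and at 0.733 to 0.838 across groups, over points that share their libraries and depth. Control mouse 3, the library with the fewest reads, was the lowest of its group in 30 of the 75 regions and the highest in 26. NR4A2 mouse 3 was the lowest of its group in 35 and the highest in 22. The CPM summed over all member regions was 4488 to 4583 in control mice and 4005 to 4153 in NR4A2 mice, so these sums did not overlap. The sums of the other lists of the same pathways, given below, did overlap. How often a list of this size and signal separates was not tested, so the sums describe these lists only. The values are relative to depth, so a loss here is a smaller share of a library's reads.

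Which members carried any region differed between roles. Every member among the G1 cyclins and their kinases (5 genes), the CDK inhibitors (5), the pocket proteins (3), the Myc genes (2) and the p53 response (8) had a region. Of 10 mitosis genes, 7 had none: Ccnb1 and Ccnb2 (cyclin B), Cdk1 (their kinase), the mitotic kinase genes Aurka and Plk1, the proliferation marker Mki67 and Top2a (topoisomerase II alpha). The other members without a region were Ccne1 and Ccna2 (cyclins of S phase), E2f1, E2f2 and E2f8, and the helicase subunit genes Mcm3, Mcm4 and Mcm6. In these 15 genes the nearest region lay 10.4 to 299.7 kb from the gene, with a median of 43.1 kb. In all, 36 of 51 members (70.6%) had a region, against 51.6% of 21631 protein-coding genes, and the difference was not tested. At the edge of the 10 kb limit, the farthest region included lay 9937 bp from Pcna, over the start of Cds2 (log2 fold change 0.32). The nearest one left out lay 10308 bp from Rbl1, with 91.7 CPM in control and 53.9 CPM in NR4A2 mice. That region was lower by the rule used here (log2 fold change -0.75, limma adjusted p = 0.0182), so the count of losses depends on the limit.

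**Figure D2:**
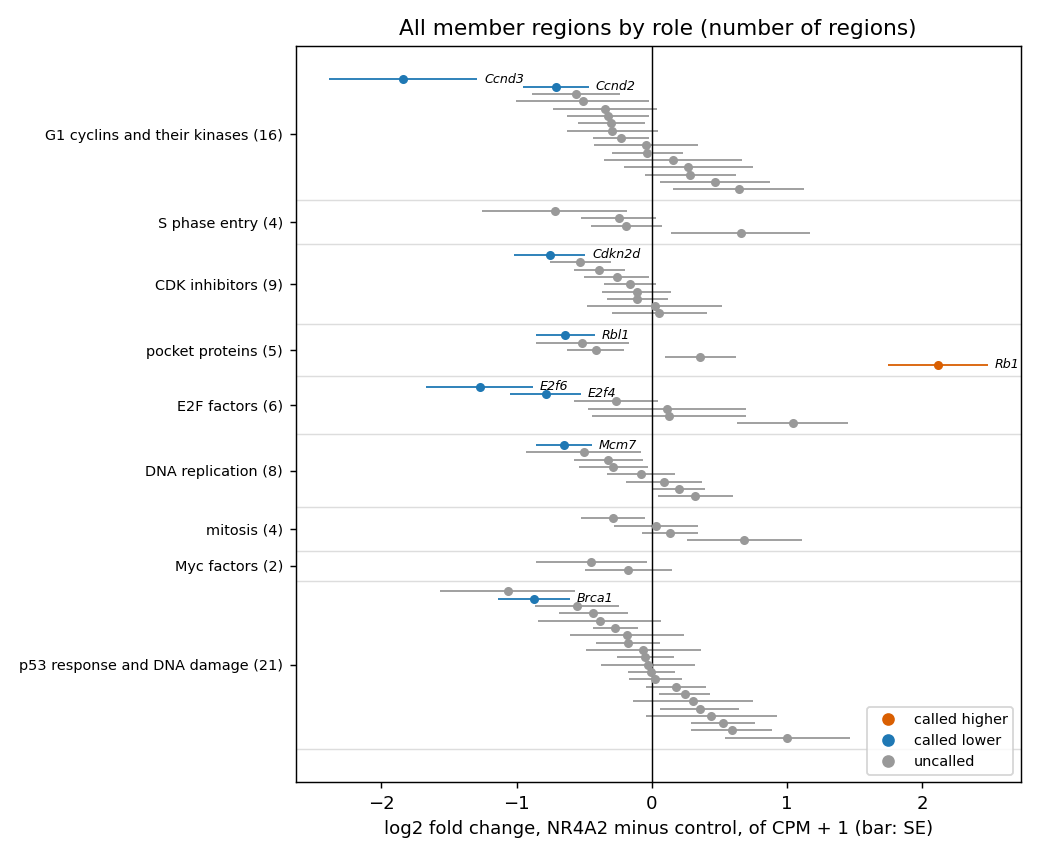
Log2 fold change (NR4A2 minus control, on CPM + 1) of each of the 75 member regions, grouped by the role of the gene, with bars for the standard error. The 8 regions called lower are spread over 6 roles, and all 66 uncalled regions lie between -1.07 and 1.04.

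Among the D cyclins and their kinases, 2 of 16 regions were lower and 0 higher. Ccnd3 encodes cyclin D3, a partner of CDK4 and CDK6, and had 7 regions, the most of any member. The lower one, 16653 bp inside the gene (chr17:47521704-47521959), held 25.6, 32.1 and 18.1 CPM in control mice 1 to 3 and 7.64, 7.88 and 3.78 CPM in NR4A2 mice 1 to 3. All NR4A2 mice were below all control mice there, and the log2 fold change was -1.84 ± 0.55 (SE, limma adjusted p = 0.0104). The signal was low, and the call ended without control mouse 1 or control mouse 2 (adjusted p of 0.0637 and 0.118, in that order). The strongest Ccnd3 region (chr17:47507889-47508661), 2838 bp from a start site, held 129, 105 and 99.6 CPM in control and 106, 104 and 75.7 CPM in NR4A2 mice (log2 fold change -0.23, adjusted p = 0.505), with overlapping groups.

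Ccnd2, whose start sites are not in the promoter table, encodes cyclin D2. Its lower region covered the upper (higher-numbered) end of the gene (chr6:127152023-127152932). It held 84.0, 75.9 and 121 CPM in control mice 1 to 3 and 48.7, 42.6 and 83.2 CPM in NR4A2 mice 1 to 3. NR4A2 mouse 3 lay within the control range, so the groups overlapped, with a log2 fold change of -0.71 ± 0.25 (SE, limma adjusted p = 0.0306). The call ended without NR4A2 mouse 1, NR4A2 mouse 2 or control mouse 3 (adjusted p of 0.136, 0.166 and 0.207, in that order). The other Ccnd2 regions had log2 fold changes of -0.32 and -0.56 and did not pass. The 3 weak regions at Ccnd1 (cyclin D1) had log2 fold changes of 0.27 to 0.64, and none of the regions at Cdk4 and Cdk6 passed (-0.35 to 0.16).

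**Figure D3:**
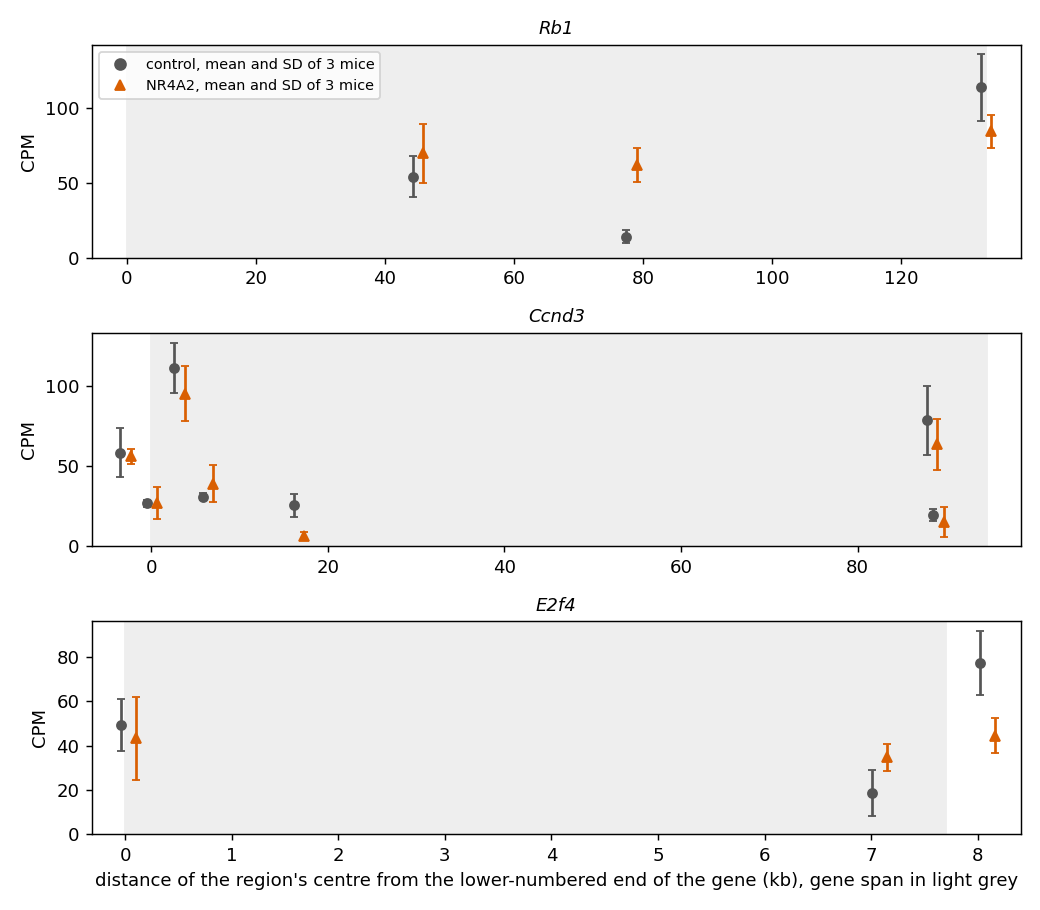
Mean CPM with SD of 3 mice in each group at every region of Rb1, Ccnd3 and E2f4, against the distance of the region's centre from the lower-numbered end of the gene (control circles and NR4A2 triangles are drawn slightly apart). The called regions are the middle one at Rb1, the fifth from the left at Ccnd3 and the rightmost at E2f4, where the group means of the adjacent region lie the other way round.

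At the genes of S phase entry, 0 of 4 regions passed limma in either direction, and 0 had an unadjusted p under 0.05. Cdk2, the kinase of cyclins E and A, had 71.7, 50.6 and 74.2 CPM in control mice 1 to 3 and 70.7, 36.3 and 70.6 CPM in NR4A2 mice 1 to 3 at the region over its start site (chr10:128705003-128705425). These values overlapped (log2 fold change -0.19 ± 0.26). The region within Ccne2, the gene of cyclin E2, was weak, at 14.3, 17.5 and 19.9 CPM in control and 12.4, 12.6 and 6.31 CPM in NR4A2 mice (log2 fold change -0.72 ± 0.53, limma adjusted p = 0.400).

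Of 9 regions at CDK inhibitor genes, 1 was lower and 0 higher. Cdkn2d encodes p19INK4d, an inhibitor of CDK4 and CDK6. The lower region lay 206 bp outside Cdkn2d, 2956 bp from its start, and held the start site of the neighbouring gene Kri1 (chr9:21287699-21288253). It held 72.7, 71.0 and 77.8 CPM in control mice 1 to 3 and 43.0, 53.6 and 35.3 CPM in NR4A2 mice 1 to 3, a log2 fold change of -0.75 ± 0.26 (SE, limma adjusted p = 0.0325), with no overlap. The call ended without NR4A2 mouse 1, NR4A2 mouse 3, control mouse 1, control mouse 2 or control mouse 3 (adjusted p of 0.0733, 0.151, 0.0777, 0.0725 and 0.0774, in that order).

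The strongest inhibitor region covered the start of Cdkn1b, the gene of p27KIP1 (chr6:134919958-134920985). It held 152, 144 and 241 CPM in control mice 1 to 3 and 121, 134 and 144 CPM in NR4A2 mice 1 to 3, with a log2 fold change of -0.39 ± 0.19 that did not pass (limma adjusted p = 0.152). Control mouse 3 was far above the other mice there. At the start of Cdkn2c, the gene of p18INK4c, the values were 103 ± 23.6 and 71.0 ± 16.4 CPM (log2 fold change -0.53 ± 0.23, adjusted p = 0.0966), a difference that passed without control mouse 2 (adjusted p = 0.0393) and with each mouse centred on its median (adjusted p = 0.0383). Cdkn1a, the p21 gene and a direct target of p53, had 2 regions, at and 1064 bp from its start sites, with log2 fold changes of -0.11 and -0.26, neither of which passed. The weak region at Cdkn1c (p57KIP2) had a log2 fold change of 0.06.

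The pocket protein genes held the only gain. The gained Rb1 region (chr14:73270786-73271275, 490 bp) lay deep in the gene, 77928 bp and 54676 bp from its ends. It held 16.4, 8.76 and 16.3 CPM in control mice 1 to 3 and 48.7, 66.2 and 70.6 CPM in NR4A2 mice 1 to 3. The lowest NR4A2 mouse was well above the highest control mouse, and the log2 fold change was 2.12 ± 0.37 (SE, limma adjusted p = 5.43e-06). The region stayed called under all 15 alternatives tried, with log2 fold changes of 1.84 to 2.28 and adjusted p of at most 0.00391. The other Rb1 regions did not pass: the one over the upper end of the gene (chr14:73325541-73326464) held 114 ± 22.3 CPM in control and 84.4 ± 11.0 CPM in NR4A2 mice (log2 fold change -0.42 ± 0.21), and the one at the start of Lpar6, a gene within Rb1, had a log2 fold change of 0.36.

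Rbl1 encodes p107, a relative of RB1. Its single region lay over its start site (chr2:157204317-157204936), the one with the E2F match shown above. It held 97.3, 90.5 and 147 CPM in control mice 1 to 3 and 72.6, 64.6 and 71.9 CPM in NR4A2 mice 1 to 3. The groups did not overlap, and the log2 fold change was -0.64 ± 0.22 (SE, limma adjusted p = 0.0297). Control mouse 3 was the highest, and the call ended without NR4A2 mouse 1, NR4A2 mouse 2, NR4A2 mouse 3 or control mouse 3 (adjusted p of 0.0616, 0.0796, 0.0768 and 0.255, in that order). The start-site region of Rbl2, the gene of p130, had a log2 fold change of -0.52 ± 0.34 and did not pass.

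Of 6 regions at E2F genes, 2 were lower and 0 higher. E2f6 encodes a repressor of the family. Its lower region (chr12:16810941-16811190, 250 bp) held the start site and 42.0, 24.3 and 57.9 CPM in control mice 1 to 3, against 21.0, 14.2 and 12.6 CPM in NR4A2 mice 1 to 3. The control mice differed widely among themselves, and the lowest of them was still above all NR4A2 mice. The log2 fold change was -1.27 ± 0.40 (SE, limma adjusted p = 0.0147), and the call ended without NR4A2 mouse 3, control mouse 1 or control mouse 3 (adjusted p of 0.0738, 0.0677 and 0.151, in that order). The single weak region at E2f3, an activator of the family, had a log2 fold change of 0.11.

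E2f4 encodes the main E2F of quiescent cells, and a pair of regions near its upper end, 262 bp apart, differed in direction. The region over that end (chr8:105305302-105306210) held 92.2, 76.9 and 63.4 CPM in control mice 1 to 3 and 35.3, 50.4 and 47.9 CPM in NR4A2 mice 1 to 3, a log2 fold change of -0.78 ± 0.26 (SE, limma adjusted p = 0.0238). It is also assigned to Elmo3, Exoc3l and Lrrc29. The call ended without NR4A2 mouse 1, NR4A2 mouse 3, control mouse 1 or control mouse 2 (adjusted p of 0.129, 0.0505, 0.154 and 0.0704, in that order). The region inside the gene (chr8:105304439-105305039) held 27.7, 20.4 and 7.24 CPM in control and 32.5, 29.9 and 41.6 CPM in NR4A2 mice. There all NR4A2 mice were above all control mice, but the difference did not pass (log2 fold change 1.04 ± 0.41, adjusted p = 0.0682); without control mouse 1 it did (1.41, adjusted p = 0.0261).

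The ratio of the outer to the inner E2f4 region, on which the scaling of a library cancels, was 3.33, 3.76 and 8.75 in control mice 1 to 3 and 1.09, 1.68 and 1.15 in NR4A2 mice 1 to 3. This comparison was chosen after the values had been seen and was therefore made for all 4110 pairs of neighbouring regions at most 5000 bp apart. limma called 42 pairs (1.02%) and 0 of the 22 pairs at 12 members, of which 2 had an unadjusted p under 0.05, at E2f4 (adjusted p = 0.0893) and at Ccng1 (adjusted p = 0.208). With a pseudocount of 4, and among the pairs of at least median signal, 1 member pair passed.

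Of 8 regions at replication genes, 1 was lower and 0 higher. Mcm7 encodes a subunit of the MCM helicase that opens DNA for replication. Its lower region held a start site of Mcm7 (chr5:138170844-138171368) and is also assigned to Ap4m1, Cops6 and Taf6. It held 136, 127 and 109 CPM in control mice 1 to 3 and 65.9, 88.3 and 83.2 CPM in NR4A2 mice 1 to 3. No values overlapped, with a log2 fold change of -0.65 ± 0.21 (SE, limma adjusted p = 0.0182). The call ended without NR4A2 mouse 1, control mouse 1 or control mouse 2 (adjusted p of 0.12, 0.0965 and 0.0683, in that order). Another region 3181 bp outside Mcm7, over the start of Cops6, held 68.9 ± 9.45 and 55.8 ± 14.2 CPM (log2 fold change -0.32, adjusted p = 0.439). Pcna encodes the sliding clamp of DNA polymerases, and its start-site region (chr2:132252998-132253787) held 116 ± 13.6 CPM in control and 133 ± 16.0 CPM in NR4A2 mice (log2 fold change 0.20, adjusted p = 0.531). Log2 fold changes were 0.09 at Mcm2 and -0.50 at Mcm5, neither called.

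The 3 mitosis genes with regions, Cdc25b, Wee1 and Aurkb, had 4 regions, of which limma called 0 and 0 had an unadjusted p under 0.05. Cdc25b encodes a phosphatase that activates CDK1. Its stronger region lay 5823 bp outside the gene over the start of Cenpb and held 99.4, 73.0 and 127 CPM in control and 92.6, 113 and 116 CPM in NR4A2 mice. The weaker one (chr2:131204840-131205073) held 16.6 ± 4.97 CPM in control and 26.6 ± 3.35 CPM in NR4A2 mice, a log2 fold change of 0.68 ± 0.43 that did not pass (adjusted p = 0.295). At Wee1, the kinase that restrains CDK1, the log2 fold change was 0.03, and the Aurkb region, 7537 bp outside the gene over the start of Borcs6, had -0.29. The Myc genes had 1 region each: Myc held 28.2 ± 9.29 and 21.5 ± 10.9 CPM (log2 fold change -0.45 ± 0.41), and Mycn held 39.7 ± 6.21 and 35.0 ± 4.72 CPM at its start site (-0.17 ± 0.32), with overlapping groups at both.

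At the 8 genes of the p53 response and DNA damage, 1 of 21 regions was lower and 0 higher. The lower one lay 752 bp outside Brca1, a gene of double-strand break repair, and is also assigned to the neighbouring gene Nbr1 (chr11:101552707-101553196). It held 90.2, 68.1 and 76.0 CPM in control mice 1 to 3 and 45.8, 55.2 and 29.0 CPM in NR4A2 mice 1 to 3. All NR4A2 mice were below all control mice (log2 fold change -0.87 ± 0.27 SE, limma adjusted p = 0.0122). The call ended without NR4A2 mouse 3 or control mouse 1 (adjusted p of 0.143 and 0.0854, in that order).

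The p53 gene Trp53 itself had a pair of regions 677 bp apart. The one over its start and that of Wrap53 (chr11:69580181-69580510) had a log2 fold change of -0.55 ± 0.31, and the one inside the gene (chr11:69581188-69581539) had 0.59 ± 0.30, neither of which passed (adjusted p = 0.239 and 0.176). At the start of Mdm2, the ligase that restrains p53, signal was 106, 106 and 176 CPM in control and 145, 107 and 134 CPM in NR4A2 mice, so the groups overlapped (log2 fold change 0.03 ± 0.20). The strongest member region of all covered the start of the kinase gene Plk2, a p53 target (chr13:110394407-110395903), with 254, 224 and 297 CPM in control and 257, 197 and 189 CPM in NR4A2 mice (log2 fold change -0.27 ± 0.17, limma adjusted p = 0.286).

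Gadd45g, of the family induced by DNA damage, had 4 regions. The one 82 bp beyond its end (chr13:51848557-51849730) held 74.8, 46.7 and 67.0 CPM in control and 83.1, 104 and 82.0 CPM in NR4A2 mice. The groups did not overlap, but the log2 fold change of 0.53 ± 0.23 did not pass (adjusted p = 0.117). Btg2, an antiproliferative p53 target, had 211, 234 and 170 CPM in control and 222, 184 and 204 CPM in NR4A2 mice at its start site, a log2 fold change of -0.00 ± 0.17. The 4 regions at Sesn1, the gene of the stress protein sestrin 1, ranged from -1.07 to 0.18 on the log2 scale and the 3 at Ccng1, which encodes the p53 target cyclin G1, from -0.06 to 1.00, and none passed.

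Of the 66 uncalled member regions, 39 (59.1%) had a negative and 27 a positive log2 fold change, and among all uncalled regions 62.7% were negative. All NR4A2 mice lay above all control mice in 8 member regions (10.7%, against 19.9% of all regions) and below them in 11 (14.7%, against 11.7% of all). The length of a member region was 213 to 1497 bp (median 462 bp), and the median over all regions was 438 bp. The median control signal was 49.3 CPM, against 37.0 CPM over all regions. A start site of the promoter table lay in 32 of the 75 regions (42.7%), in 20 a start of the member itself and in 12 of another gene alone. Of all regions on chromosomes in that table, 36.9% held one, with 3.32% of the higher, 51.4% of the lower and 42.3% of the uncalled. The 10 kb limit selects regions near genes, and the shares of calls given for all regions do not allow for that.

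**Figure D4:**
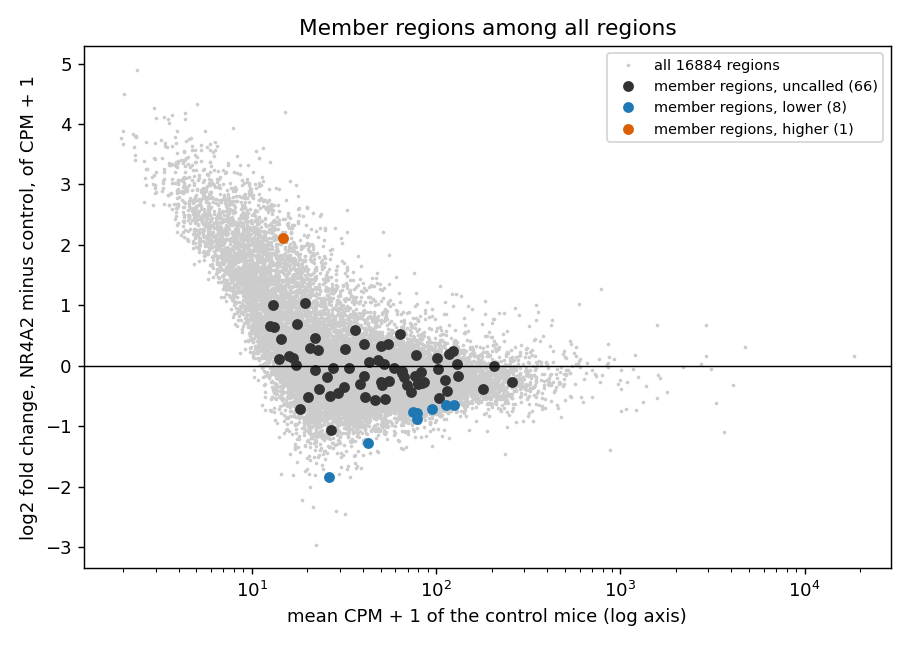
Log2 fold change (NR4A2 minus control, on CPM + 1) against the mean CPM + 1 of the control mice (log axis) for all 16884 regions in grey and the 75 member regions in colour. The member regions have control means of 11.5 to 258 CPM, and 6 of the 8 lower member regions have a control mean between 73.9 and 124 CPM.

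Summed over all regions of a gene, which weights each gene by its strongest region, signal was lower at 5 of 36 members (13.9%) and higher at 0, against 3.15% and 6.94% of 11154 genes by the same limma fit on summed CPM. No member had an unadjusted p under 0.05 for a higher sum. The sums that fell were those of Brca1, Cdkn2d and Rbl1, which have 1 region each, and of E2f6 and Ccnd2. At Ccnd2 the sum was 179, 156 and 232 CPM in control mice 1 to 3 and 132, 102 and 148 CPM in NR4A2 mice 1 to 3 (log2 fold change -0.56 ± 0.17, adjusted p = 0.0311). At E2f6 it was 58.4, 51.6 and 61.5 CPM in control and 43.0, 23.6 and 24.0 CPM in NR4A2 mice (-0.95 ± 0.30, adjusted p = 0.0358). None of the 5 passed with edgeR or DESeq2 on recovered reads (0 and 0 lower) or without control mouse 1 (0 lower). The sum at Rb1 was 180, 170 and 194 CPM in control and 192, 197 and 259 CPM in NR4A2 mice and did not pass (0.24 ± 0.15, adjusted p = 0.347), although its middle region rose. The largest sums were those of Ccnd3 and Btg2, at 350 ± 29.5 and 330 ± 31.3 CPM in control mice, which did not differ beyond their spread, and the smallest was that of Cdc25a, the gene of a phosphatase that activates CDK2, at 11.5 ± 3.85 CPM.

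**Figure D5:**
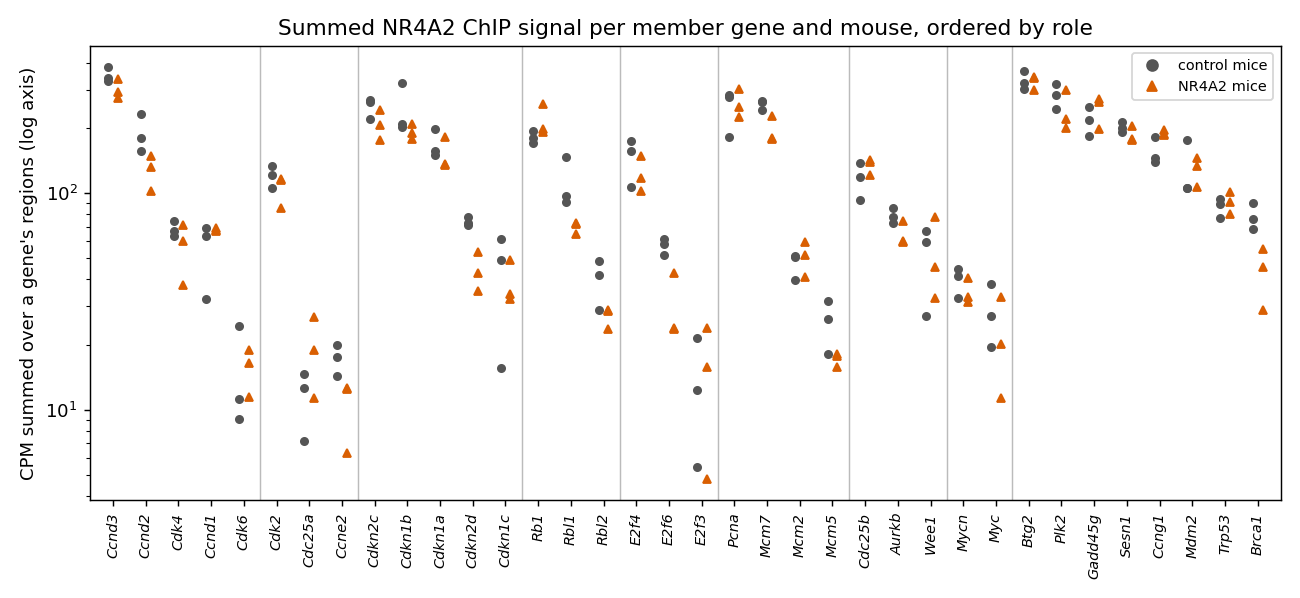
CPM summed over all regions of each of the 36 members with a region (log axis), for each control mouse (circles) and NR4A2 mouse (triangles), ordered by role and then by level. Groups overlap at most genes. The groups lie apart at the called Brca1, Cdkn2d, E2f6, Rbl1 and Ccnd2. They also lie apart at the uncalled Mcm7, Ccne2 and Ccng1, the last with NR4A2 mice above. The share of all genes whose sums lie apart was not determined.

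Other genes of the same pathways were followed in a list of 68 cell cycle genes and one of 40 p53 pathway genes. Of 43 such cell cycle genes with a region, 7 had a higher and 3 a lower one, and of 31 p53 pathway genes 2 had a higher and 0 a lower one, against 14.2% and 6.25% of all 11154 genes with a region. The median log2 fold change was -0.09 over 68 regions and -0.13 over 49. The CPM summed over the cell cycle list was 4037 to 4187 in control and 3838 to 4065 in NR4A2 mice. Over the p53 list it was 3594 to 3662 in control and 3226 to 3712 in NR4A2 mice, so the groups overlapped in both. Signal rose near Nek2, a centrosome kinase gene, at a region 7980 bp outside it (5.23 ± 3.48 to 43.8 ± 10.6 CPM), and within Mybl2, an E2F target that encodes a transcription factor of the cycle (10.2, 5.84 and 3.62 CPM in control and 28.6, 53.6 and 55.5 CPM in NR4A2 mice). It rose at Tk1, the thymidine kinase gene (31.9 ± 13.7 to 75.5 ± 8.75 CPM), at 2 regions in or near Max, the partner of MYC (log2 fold changes 1.89 ± 0.43 and 1.55 ± 0.41), and at Fbxw7, whose ubiquitin ligase degrades cyclin E (1.23 ± 0.38). It fell at Mxd4, which encodes a MAX partner that opposes MYC (-0.59 ± 0.19), at Orc4, of the origin recognition complex (-0.71 ± 0.25), and at Rbbp4, a binding partner of RB1 (-0.49 ± 0.18). In the p53 list it rose at 2 regions of Tigar, a p53 target that lowers glycolysis (1.98 ± 0.34 and 2.39 ± 0.65), and at Trp53bp1 (1.01 ± 0.35). Each of the 8 cardiomyocyte markers had regions, 7 of them a higher one and 1, Ryr2, also a lower one. These were 18 and 2 of 210 regions, against 14.7% and 3.17% of all regions, with 1 higher region shared by Myh6 and Myh7. Ttn alone held 183 of the 210 regions. The summed signal of the 8 markers was 33533 to 50111 CPM in control and 44576 to 54149 CPM in NR4A2 mice. Of 4 fibroblast, 6 endothelial, 2 immune and 4 smooth muscle or pericyte markers with a region, 0, 1, 1 and 0 had a higher and 0, 2, 0 and 0 a lower one. The 6 endothelial markers, with lower regions at Pecam1 and Tie1 and a higher one at Vwf, summed to 769 to 912 CPM in control and 626 to 798 CPM in NR4A2 mice. The part of any shift in cell types in the member values was not tested.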

How the data were processed

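NR4A2 ChIP-seq was measured in 6 libraries, 3 control and 3 NR4A2 mice; the antibody test and input samples (3 of 9 in the series) were not analysed here. Reads were aligned with BWA to GRCm38 (mm10), per the submitters' processing notes. Which peak caller, counter and filters followed was not given in the sources used here. Values deposited by the authors are CPM per mouse and region. Every value was a whole multiple of 1 read (100% of values, tolerance 0.001), so reads could be recovered; they numbered 984905, 1027394 and 549700 in control mice 1 to 3 and 1035856, 637635 and 794382 in NR4A2 mice 1 to 3. Per the labels' protocols each ChIP also contained fly chromatin and an antibody for it, meant for normalization; whether these reads entered the CPM is not stated. The authors' log2 fold change and the authors' p-value and FDR are in the deposited table too. In the authors' deposited table, all 9 regions called here had an FDR under 0.05, and Rb1 was marked up-regulated and Cdkn2d, E2f4, E2f6, Ccnd3 and Brca1 down-regulated, while Mcm7, Ccnd2 and Rbl1 were marked unchanged.

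The main test was limma 3.58.1 (R 4.3.3, trend and robust) on log2(CPM + 1), a model of genotype alone over all regions, with Benjamini-Hochberg adjustment. A second limma fit used CPM summed per gene. Alternatives were edgeR 4.0.16 and DESeq2 1.42.0 on recovered reads, other pseudocounts, scalings, windows and filters, and each mouse left out. Tested on simulated reads modelled on this comparison (16884 regions), the main test called 36% of 100 regions given a log2 change of 1, 86% of 100 given a log2 change of 2, and 6 unchanged regions. Far fewer regions were changed there than were called in the data. The adjustment depends on that number, so recovery in the data may differ. All 51 members matched RefSeq spans; start sites were in the promoter table for 40. Mice are the replicates; no label says how they were paired or batched. Members and lists were chosen with earlier results of these data known. Values were given for each called region and, in each of 9 roles, for the strongest region and the uncalled region of smallest adjusted p; others were named after their values were seen. Of the other pathway lists, called genes were named, at most 5 in each direction by adjusted p.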

Additional observations from a re-analysis of the deposited data

How the results depend on the processing

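The gain at Rb1 kept its direction and its call under all 15 alternatives, while each of the 8 losses kept its direction but lost its call with at least 1 mouse left out. Member regions numbered 1 higher and 8 lower. The higher count was 2 without trend and robust moderation, and 1 to 2 with a mouse left out. Among regions of at least median signal, 1 of 45 member regions was higher and 3 lower, against 481 and 235 of all 8442. The lower count was 5 with DESeq2, 0 with no scaling for depth and 2 without trend and robust moderation. With a mouse left out it was 2 to 6. Lower gene sums, 5 in the fit used, numbered 1 of 19 at or above median signal, 0 with edgeR, 0 with DESeq2, 0 with no scaling, 0 with each mouse centred on its median, 0 without trend and robust moderation, 3 with the gene span alone, and 0 to 3 with a mouse left out. Over all regions, 2475 higher and 536 lower became 481 and 235 at or above median signal, 2177 and 251 with DESeq2, 1398 and 14 with no scaling, 2219 and 1040 with median centring, 2237 and 132 without moderation by trend, and 1577 to 2332 and 270 to 454 with a mouse left out. Higher calls were 82.2% of all calls, 68.1% with median centring, which moved the median log2 fold change of all regions from -0.06 to -0.17 and that of the member regions from -0.16 to -0.27, 67.2% at or above median signal, 94.4% without trend and robust moderation and 99.0% with no scaling. Of neighbouring pairs at members, 0 of 22 passed in the fit used and 0 with any mouse left out, and 1 with a pseudocount of 4 and 1 of 16 among pairs of at least median signal. The cause of these differences was not tested. With the mouse number as a replicate block, 1 member region was higher and 8 lower, 0 gene sums were higher and 5 lower, and 2540 and 580 of all regions were called. The deviations of same-numbered mice from their group means correlated at -0.07, 0.06 and 0.03. With so few mice, these values cannot show whether same-numbered mice shared a litter or batch. At these depths 3 reads are worth 2.86 to 5.43 CPM, which limits weak regions such as that at Ccnd3.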
